A study of Mus musculus with 5 samples.

Results

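The genes described here are the 4 teneurins (Tenm1, Tenm2, Tenm3 and Tenm4), the 3 latrophilins (Adgrl1, Adgrl2 and Adgrl3) and the 3 FLRT genes (Flrt1, Flrt2 and Flrt3). NEUROD2 binding at these 10 genes was measured by ChIP-Seq, in which chromatin is precipitated with an antibody and its DNA is sequenced. The cerebral cortex of E14.5 BALB/c embryos was precipitated with 3 NEUROD2 antibodies (ab1 from mouse, ab2 and ab3 from rabbit), and GFP antibodies of both species served as controls. Each antibody gave 1 library from embryos pooled over several litters, with no mutation or treatment in any group, so the data hold a single condition without a biological replicate of any antibody. A locus was defined as the span of a gene's longest transcript plus 50 kb at either end, a peak belonged to a locus when its midpoint lay inside it, and overlapping peaks of the antibodies were merged into regions. The 10 loci held 238 of the 53833 merged regions in the genome. A region with peaks of at least 2 antibodies is called shared below. Start sites are those of the longest transcript of each gene unless others are named. The distance of a region from a start site is that of its midpoint.

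Teneurins are large transmembrane proteins on the surface of neurons, and they join neighbouring cells by binding teneurins or other proteins on the opposite membrane. Latrophilins are adhesion G protein-coupled receptors that bind teneurins, and they also bind the FLRT proteins, which carry leucine-rich repeats outside the cell. FLRT proteins bind the netrin receptors of the Unc5 family as well, and teneurins, latrophilins and FLRTs guide migrating neurons and help to specify synapses in the developing cortex. NEUROD2 is a basic helix-loop-helix transcription factor of cortical projection neurons and recognises E-boxes, short motifs of the form CANNTG.

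The highest-scoring shared regions with a recognised motif are shown here, because they let the motif be seen beside the scores and positions given below. At Tenm1, Tenm2 and Adgrl1 a region with a higher summed score, described below, held no such motif in its centre. For 8 of the loci the shared region with the highest sum of antibody scores was taken among those with an extended E-box within 100 bp of the midpoint. The extended E-box is CAGCTG, or CAGATG, or CATCTG, or CATATG followed by G or T, searched on both strands. CAGATG and CATCTG are the same site read from opposite strands and were counted as 1 site. The central 200 bp are printed from the plus strand of mm10 (the GRCm38 reference sequence of RefSeq), with each extended E-box in capitals. At Flrt3 only the 30 bases around the motif are printed. No shared region at Flrt2 held the motif in its centre.
Tenm1: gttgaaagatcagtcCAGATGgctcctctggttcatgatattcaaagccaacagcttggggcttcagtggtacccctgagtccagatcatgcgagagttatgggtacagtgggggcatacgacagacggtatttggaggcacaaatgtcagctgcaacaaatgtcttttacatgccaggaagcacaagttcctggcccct
Tenm2: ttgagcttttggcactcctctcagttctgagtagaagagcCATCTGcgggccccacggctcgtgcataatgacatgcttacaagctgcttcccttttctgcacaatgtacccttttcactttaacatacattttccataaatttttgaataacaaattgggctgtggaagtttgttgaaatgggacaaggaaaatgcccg
Tenm4: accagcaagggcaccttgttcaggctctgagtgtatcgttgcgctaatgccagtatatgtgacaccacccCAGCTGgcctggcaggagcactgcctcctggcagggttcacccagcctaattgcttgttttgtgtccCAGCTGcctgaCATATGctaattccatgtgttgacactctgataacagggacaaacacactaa
Adgrl1: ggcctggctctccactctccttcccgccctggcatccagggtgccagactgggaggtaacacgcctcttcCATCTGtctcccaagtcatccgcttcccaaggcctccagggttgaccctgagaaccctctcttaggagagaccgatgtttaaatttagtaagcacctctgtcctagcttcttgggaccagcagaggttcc
Adgrl2: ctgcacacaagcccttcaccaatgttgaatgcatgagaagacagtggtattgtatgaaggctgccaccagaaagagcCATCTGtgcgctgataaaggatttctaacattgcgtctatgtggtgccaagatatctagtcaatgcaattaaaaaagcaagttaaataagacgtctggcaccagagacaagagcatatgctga
Adgrl3: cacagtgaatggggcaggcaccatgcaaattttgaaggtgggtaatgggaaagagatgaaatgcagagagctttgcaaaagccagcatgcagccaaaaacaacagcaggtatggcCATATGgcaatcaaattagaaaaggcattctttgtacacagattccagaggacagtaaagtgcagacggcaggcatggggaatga
Flrt1: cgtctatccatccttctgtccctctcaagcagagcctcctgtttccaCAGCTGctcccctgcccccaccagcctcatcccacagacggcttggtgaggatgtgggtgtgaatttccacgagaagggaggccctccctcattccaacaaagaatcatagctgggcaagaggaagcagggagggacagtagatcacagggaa
Flrt3: tggataatcagaCAGATGagctttgccaac

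The printed stretches lie at chrX:42490376-42490575 for Tenm1, chr11:37154199-37154398 for Tenm2 and chr7:96832711-96832910 for Tenm4. Those of the latrophilins lie at chr8:83875833-83876032 for Adgrl1, chr3:148935099-148935298 for Adgrl2 and chr5:81736082-81736281 for Adgrl3. Those of the FLRT genes lie at chr19:7148318-7148517 for Flrt1 and chr2:140671561-140671590 for Flrt3. The Tenm4 stretch was alone among them in holding 3 extended E-boxes, centred 27 bp before and 40 and 51 bp after the midpoint, and each of the other stretches held 1. CAGCTG is the motif at Flrt1 and occurs 2 times at Tenm4. CAGATG, or its reverse complement CATCTG, is the motif at Tenm1, Tenm2, Adgrl1, Adgrl2 and Flrt3. CATATG is the motif at Adgrl3 and is the remaining site at Tenm4. The stretches at Tenm2, Tenm4, Adgrl2 and Adgrl3 are intronic, those at Adgrl1, Flrt1 and Flrt3 lie upstream of the gene, and that of Tenm1 lies downstream of it within the span of its neighbour Tex13c2.

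NEUROD2 regions were found at every one of the 10 loci, and most of them lay in the introns of 3 teneurins and in a cluster upstream of Flrt1. Tenm4 held 54 shared regions, Tenm2 40, Tenm3 21, Flrt1 14, Adgrl3 9, Adgrl2 8, Adgrl1 4, Tenm1 3, and Flrt2 and Flrt3 1 each. All 10 genes had a shared region in their locus, against 67.6% of the 21938 protein-coding genes treated in the same way. Without ab1, or without ab2, the number fell to 6, since Tenm1, Adgrl1, Flrt2 and Flrt3 had no ab3 peak, and Flrt3 alone was lost with a peak score of at least 100 or with the gene span alone. A region with peaks of all 3 antibodies was present at 6 of the 10 genes, against 26.7% of protein-coding genes. These 6 were Tenm2, Tenm3, Tenm4, Adgrl2, Adgrl3 and Flrt1. Long genes have long windows, so these counts depend on gene length, and densities are given below.

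Of the 238 regions, 155 were shared, which is 65.1% (95% Wilson interval 58.9 to 70.9%) against 59.9% of all merged regions. Peaks of all 3 antibodies lay in 39 regions, which is 16.4% (12.2 to 21.6%) against 13.3% of all merged regions. Both intervals include the share of all regions, and they cover counting error alone. The other combinations were ab1 with ab2 in 116 regions, ab1 alone in 72 and ab2 alone in 11, and no region was found with ab3 alone. The share of each library's peaks that fell in the 10 loci was 0.459% for ab1 (238 of 51841), 0.484% for ab2 (171 of 35310) and 0.536% for ab3 (40 of 7470). The loci cover 5.28 Mb, or 0.199% of the known bases, so the 3 libraries placed 2.30, 2.43 and 2.69 times as many peaks there as the share of bases, a mean of 2.47 ± 0.195 (SD, n = 3 antibodies). Whether the antibodies were used on the same pool of tissue is not stated, so they cannot be taken as independent samples. In addition, ab2 and ab3 share their GFP control.

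**Figure D1:**
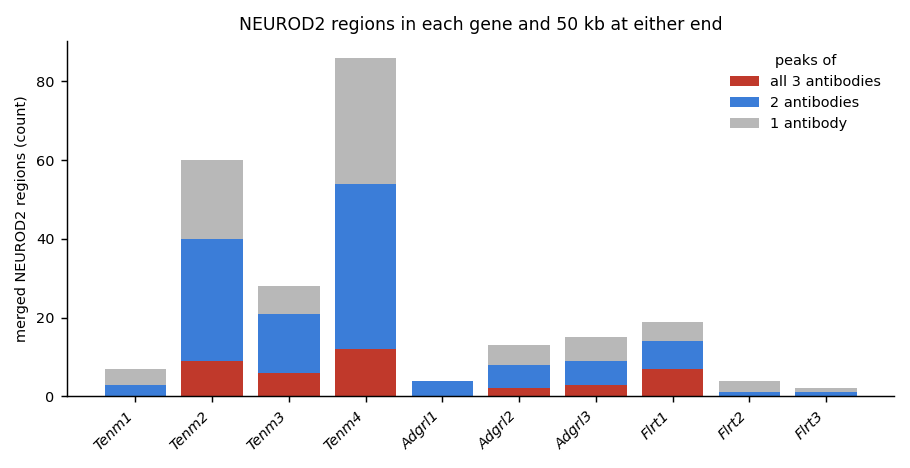
Number of merged NEUROD2 regions (vertical axis, counts) in each of the 10 loci, stacked by the number of antibodies with a peak in the region. Tenm4 (86 regions) and Tenm2 (60) stand highest, and Tenm1, Adgrl1, Flrt2 and Flrt3 hold no region of all 3 antibodies.

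Corrected for length, the order of the genes changed, and Flrt1 came first. The shared regions per Mb of locus were 123.1 at Flrt1, 64.5 at Tenm4, 38.4 at Tenm3, 30.1 at Tenm2, 29.1 at Adgrl2, 28.2 at Adgrl1, 10.3 at Adgrl3, 8.30 at Flrt3, 5.18 at Flrt2 and 3.56 at Tenm1. Over the protein-coding genes the median was 9.50 per Mb with quartiles of 0 and 23.5, and over the 2434 of them that span at least 100 kb it was 13.1 with quartiles of 4.99 and 24.1. Of the 10 members, 6 therefore lay above the upper quartile of all genes, and Flrt2, Flrt3 and Tenm1 lay below the median. Flrt1 ranked 26 among the 21938 genes by density, and 99.9% of genes had a lower value. Tenm4 exceeded 97.9% of genes by density and ranked 5 by the number of shared regions, and Tenm2 ranked 8 by number but exceeded 84.7% by density. Exact Poisson intervals on the counts (95%, counting error only) ran from 67.3 to 207 per Mb at Flrt1, 48.4 to 84.1 at Tenm4, 23.8 to 58.7 at Tenm3, 21.5 to 41.0 at Tenm2, 12.6 to 57.4 at Adgrl2, 7.68 to 72.2 at Adgrl1, 4.70 to 19.5 at Adgrl3 and 0.734 to 10.4 at Tenm1. At Flrt3 and Flrt2, with 1 shared region each, they ran from 0.21 to 46.2 and from 0.131 to 28.9. These 2 intervals include both the median and the upper quartile of all genes, so the counts do not place either gene. Every pair of neighbours in the order of density has overlapping intervals, whereas the intervals of Tenm4 and Tenm2 do not overlap. Across all 10 loci there were 29.4 shared regions per Mb, against 12.2 per Mb of the known genome.

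**Figure D2:**
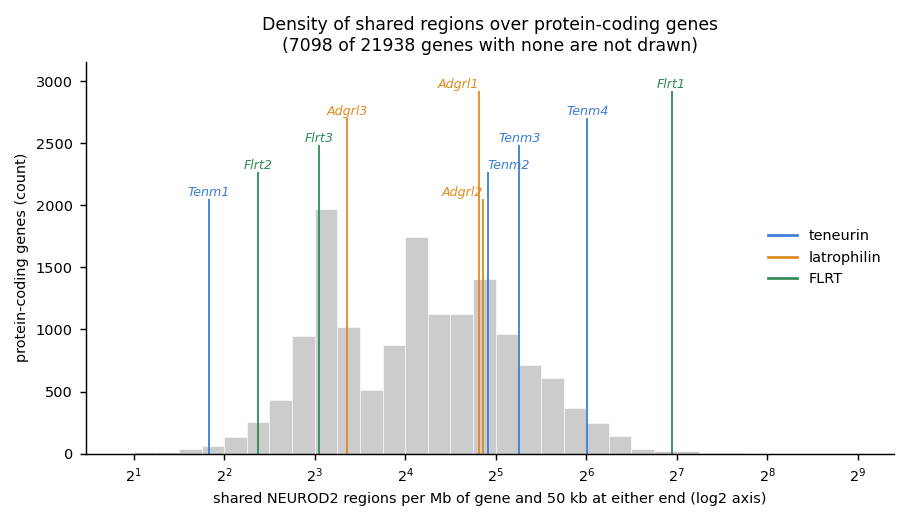
Shared NEUROD2 regions per Mb (horizontal axis, log2 scale) of gene plus 50 kb at either end, as a histogram over protein-coding genes (vertical axis, counts of genes) with the 10 members as vertical lines coloured by family; line heights only separate the labels. Flrt1 at 123.1 and Tenm4 at 64.5 per Mb lie at the upper end, and Tenm1 at 3.56 per Mb lies near the lower end of the genes that have a shared region.

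Scores give the strength of the call for each peak. The deposited score is the −log10 of the MACS p-value multiplied by 10, with no scaling from one library to another, so scores were compared within an antibody only and a sum of scores was used only to choose regions and to draw the maps of the loci, where its height also depends on the number of antibodies. The lowest deposited score is 50 for ab1 and ab2 and 50.01 for ab3. In the shared regions of the 10 loci the highest ab1 peak had a median score of 313.8, against 277.7 in all shared regions. The corresponding medians were 163.2 and 140.3 for ab2, and 111.3 and 90.5 for ab3 over the regions with an ab3 peak. All 3 antibodies therefore gave a higher median at these loci than over all shared regions, and no test was run on these differences. Regions with ab1 alone had a median ab1 score of 81.0.

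Regions with all 3 antibodies were those with high scores in the other libraries. Their ab1 scores ran from 254.5 to 3100 with a median of 1360, against a range of 51.2 to 1572 and a median of 236.0 in regions with ab1 and ab2 alone, so the ranges overlapped. The ab1 and ab2 scores of the 155 shared regions moved together, with a Pearson correlation of 0.897 on the log10 scale and a Spearman correlation of 0.874. The Pearson correlation was 0.701 between ab1 and ab3 and 0.849 between ab2 and ab3 over the 39 regions with all 3. Over all shared regions with peaks of the pair, the Pearson correlations were 0.885 for ab1 with ab2, 0.683 for ab1 with ab3 and 0.769 for ab2 with ab3. The points of each correlation come from the same chromatin regions, and the libraries of ab2 and ab3 share a control. A score of exactly 3100 recurred in 661 ab1 peaks and 62 ab2 peaks, and 69 and 14 peaks had higher scores, so members at 3100 (5 regions for ab1 and 2 for ab2) cannot be ranked among themselves by that antibody.

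**Figure D3:**
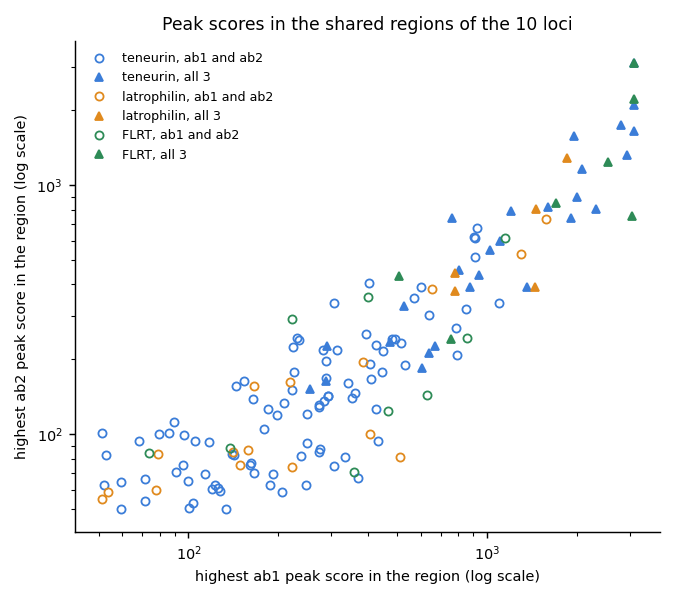
Highest ab1 score (horizontal axis, log scale) against highest ab2 score (vertical axis, log scale) in each of the 155 shared regions, coloured by family, with filled triangles for regions that also have an ab3 peak. The triangles lie towards the upper right, and 2 regions, at Flrt1 and Tenm4, lie at 3100 on both axes.

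Among the teneurins, Tenm4 carried the most regions. Its 81 ab1 peaks had scores from 52.0 to 3100 with a median of 233.9, its 62 ab2 peaks ran from 51.2 to 3100 with a median of 156.1, and its 12 ab3 peaks ran from 79.8 to 865.5 with a median of 110.7. Of its 54 shared regions 53 were intronic and 1 lay upstream, and 12 had all 3 antibodies. Intron 1 (183.9 kb) held 9 shared regions, intron 2 held 7, and introns 3, 4 and 13 held 5 each. The median gap between neighbouring shared regions was 7.88 kb, and 9 of them fell within 50 kb, 578 to 626 kb from the start site.

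The strongest region of Tenm4 was in intron 19, at chr7:96832074-96833549, 662 kb inside the gene. It scored 3100 with both ab1 and ab2 and 865.5 with ab3, a value above 99.3% of the ab3 library. This is the region with the 3 E-boxes printed above. Next to it, in the same intron, lay a region where ab1 scored 1905, ab2 742.0 and ab3 107.6, and another in intron 20 with 3100, 2106 and 299.3. Tenm4 also had a region of all 3 antibodies 2261 bp upstream of its start site, at chr7:96168512-96169458, with scores of 1199, 787.5 and 122.3. The start site of its longest transcript had no shared region within 1 kb.

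Tenm2 had the second highest number. Its 59 ab1 peaks had scores from 50.6 to 2804 with a median of 160.2, its 41 ab2 peaks ran from 50.6 to 1749 with a median of 136.3, and its 9 ab3 peaks ran from 58.1 to 280.5 with a median of 101.6. The 479.3 kb of intron 4 held 12 of the 36 intronic shared regions and 3 of the 9 regions with all 3 antibodies. The highest scores were found outside the gene, at chr11:35991558-35992880 and downstream of its end, where ab1 scored 2804, ab2 1749 and ab3 280.5. That region held no extended E-box in its centre, and the closest longest-transcript start of a protein-coding gene was that of Wwc1 at 11692 bp. Within the gene the strongest call was in intron 1 (chr11:37153498-37155101) with 2080, 1163 and 128.0, whose CAGATG site is printed above.

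Tenm3 had 27 ab1 peaks with scores from 53.0 to 2942 and a median of 226.4, 22 ab2 peaks from 50.1 to 1328 with a median of 149.9, and 6 ab3 peaks from 54.3 to 190.0 with a median of 66.8. Its highest scores were downstream as well, at chr8:48214762-48216017 and beyond the end of the gene, with 2942, 1328 and 190.0 and no extended E-box in the centre. The 229.0 kb of intron 2 held 7 shared regions, all of them without ab3, and intron 11 held 3, of which 2 had all 3 antibodies.

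Tenm1, which is on the X chromosome, stood apart from the other teneurins. It had 7 ab1 peaks with scores from 64.8 to 906.5, 3 ab2 peaks from 50.02 to 618.3 and no ab3 peak in a locus of 842 kb. Its strongest region, at chrX:42539638-42540685 in intron 29, had 906.5 for ab1 and 618.3 for ab2. The other shared regions scored 134.0 and 99.6 for ab1, and 50.02 and 65.2 for ab2.

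In the teneurins together, 108 of the 118 shared regions were intronic, none was exonic and 110 lay over 50 kb from the start site of the longest transcript, with a median distance of 507 kb. These are 91.5% and 93.2% of the regions, and introns made up 87.7% of the bases of the 4 loci and stretches over 50 kb from the start 88.8%, so the shares were near those of the bases. When 1 start site was taken for each protein-coding gene, that of its longest transcript, the closest was the teneurin's own for 48 of the 118. It was that of Wwc1, a scaffold protein of the Hippo pathway, for 29 of 40 regions at Tenm2, that of Dctd, a deoxycytidylate deaminase, for 12 of 21 at Tenm3, and that of Nars2, the mitochondrial asparaginyl-tRNA synthetase, for 27 of 54 at Tenm4. When the starts of every protein-coding transcript were used, the teneurin's own was closest for 77 of the 118, and these neighbours were left with 23, 10 and 6 regions. The assignment of a region to a gene therefore depended on the transcripts used, most of all at Tenm4.

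**Figure D4:**
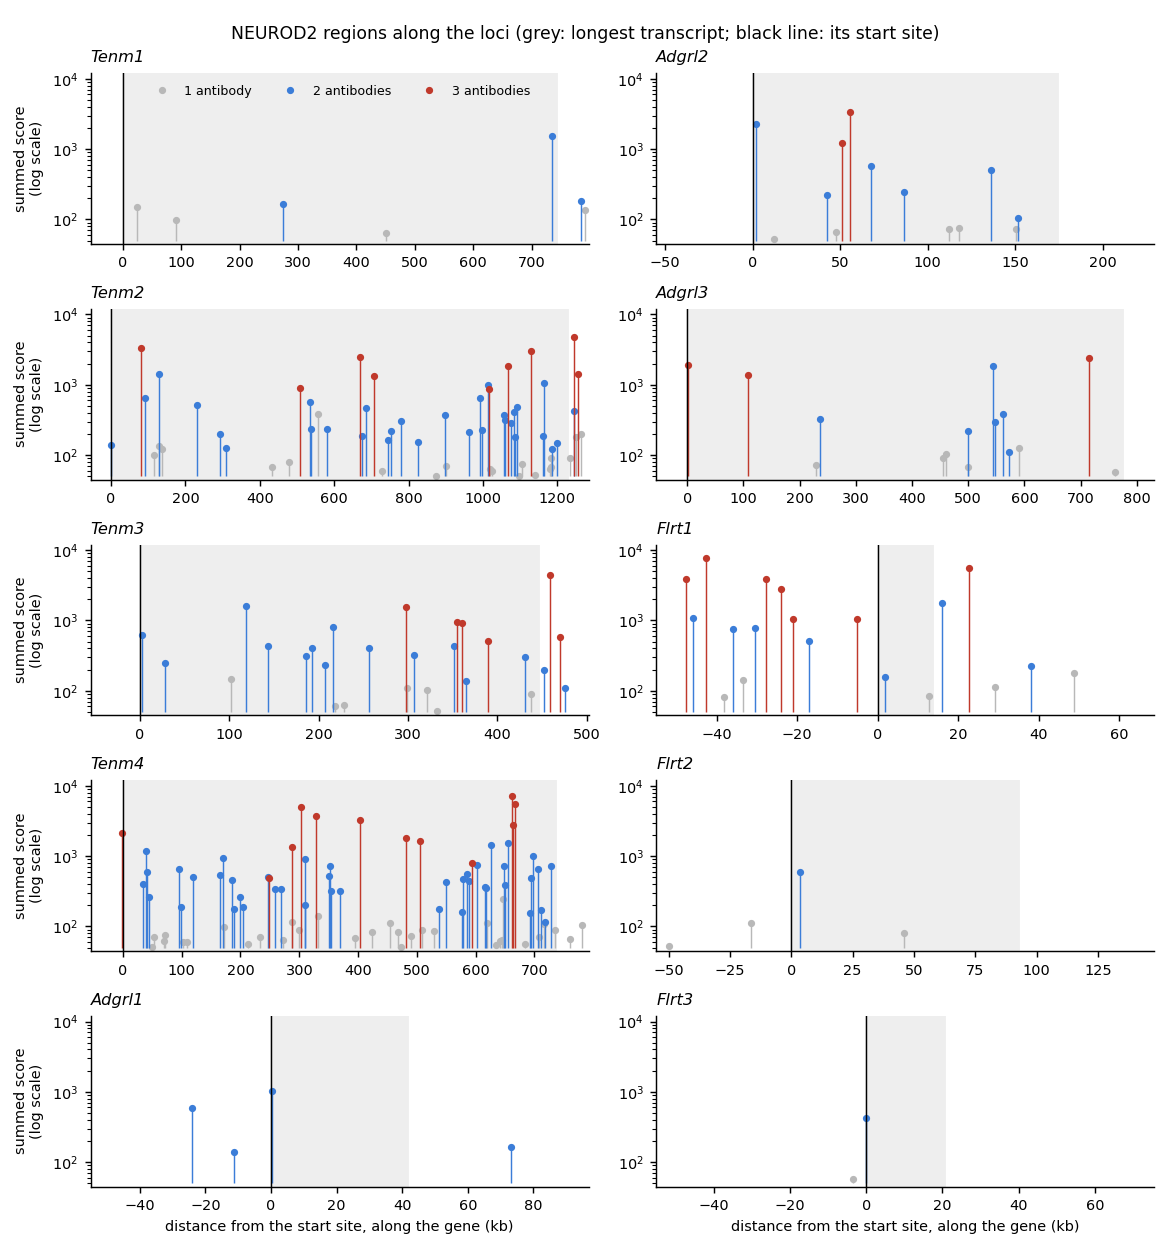
Each merged NEUROD2 region at the 10 loci, placed by the distance of its midpoint from the start site of the longest transcript in the direction of transcription (horizontal axes, kb), with the sum of its antibody scores (vertical axes, log scale) and coloured by the number of antibodies; grey shading is the transcript. Regions fill the introns of Tenm2, Tenm3 and Tenm4, whereas those of Flrt1 lie mainly upstream, between 5262 and 47724 bp from its start.

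The latrophilins had fewer regions. Adgrl3 held 9 shared regions, all intronic, of which 3 had all 3 antibodies. Its scores ran from 53.9 to 1455 over 18 ab1 peaks, from 58.4 to 800.9 over 9 ab2 peaks and from 74.0 to 148.8 over 3 ab3 peaks. The strongest call by summed score was in intron 18, at chr5:81735918-81736447, where ab1 scored 1455, ab2 800.9 and ab3 138.3, and its CATATG site is printed above. A region with nearly the same ab1 score, 1449, lay 818 bp inside the start site, at chr5:81019335-81023444, with 390.6 for ab2 and 74.0 for ab3. It was the sole region of all 3 antibodies within 1 kb of a member's annotated start.

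Adgrl2 held 8 shared regions within its span, 5 of them in the 63.9 kb of intron 2. There lay both regions of all 3 antibodies, 1 with scores of 1845, 1285 and 246.4 (chr3:148934567-148935831) and 1 with 781.3, 374.9 and 54.3. A region of 4512 bp over the start of the gene, chr3:148986168-148990679, had 1572 for ab1 and 733.2 for ab2 and no ab3 peak, and its midpoint was 2132 bp inside the gene. Adgrl1, the shortest latrophilin gene, held 4 shared regions without ab3, of which the highest, 653.7 for ab1 and 385.3 for ab2 at chr8:83898883-83902258, covered the start site. The centre of that region was 84% G and C and held no extended E-box. The 2 upstream regions of Adgrl1 and the downstream region, 179 bp from the start site of Prkaca, scored 511.2, 77.8 and 79.2 for ab1.

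Flrt1 had the densest binding of the 10 genes. Its 23 ab1 peaks had scores from 73.8 to 3100 with a median of 509.0, its 19 ab2 peaks ran from 54.6 to 3100 with a median of 250.5, and its 8 ab3 peaks ran from 53.1 to 1603 with a median of 140.6. Of the 14 shared regions 10 were upstream, 3 downstream and 1 in the single intron, and 7 had all 3 antibodies. Within 50 kb lay 11 shared regions, 6 of them with all 3. All 14 lay within the span of Macrod1, a gene for a mono-ADP-ribosyl hydrolase in which Flrt1 is nested, although the closest protein-coding start site was that of Flrt1 for 13 of them. With 10 kb in place of 50 kb at either end, 4 shared regions were left, and the gene span alone held 1.

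The strongest of these, chr19:7146310-7150527, lay 42.7 kb upstream of Flrt1 and scored 3100 with both ab1 and ab2 and 1603 with ab3, the highest ab3 score of the 238 regions. Its ab3 score exceeded 99.95% of that library. Downstream, chr19:7081902-7084222 had scores of 3100, 2213 and 346.7, the third highest for ab3 after the Tenm4 region in intron 19. The median width of shared regions was 2118 bp at the FLRT genes, against 863 bp at the teneurins, 841 bp at the latrophilins and 865 bp over all shared regions.

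Flrt2 and Flrt3 each had 1 shared region and neither had an ab3 peak. At Flrt2 it was in intron 1, at chr12:95694695-95697055, with scores of 464.1 for ab1 and 123.9 for ab2. At Flrt3 it lay 50 bp upstream of the start site, at chr2:140671069-140671931 and within the span of Macrod2, with 357.1 and 70.4. Thus 14 of the 16 shared regions of the FLRT genes belonged to Flrt1.

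Few of the shared regions lay at start sites. Of the 155, 10 lay within 1 kb of the closest start site of any gene, which is 6.45% (3.54 to 11.5%), against 15.7% of all shared regions, and the interval lies below that share. However, 118 of the 155 lay at the teneurins, where 88.8% of the bases were over 50 kb from the gene's own start. The share of bases near a start site of any gene was not measured at these loci, and its bearing was not tested. With the starts of every annotated transcript there were 15, or 9.68% (5.95 to 15.4%), against 19.9% of all shared regions. No test was run, since regions of 1 locus are not independent. The start of the member's own longest transcript had the midpoint of a shared region within 1 kb at Adgrl1, Adgrl3 and Flrt3, 3 of 10 genes (30%, 10.8 to 60.3%), against 20.8% of protein-coding genes. The wide region over the start of Adgrl2 was not counted, since its midpoint was 2132 bp inside the gene. A Tenm2 region with its midpoint 1125 bp upstream of the start was not counted either, although its nearer edge lay within 1 kb. The longest transcript of Adgrl3 is annotated as a target of nonsense-mediated decay and that of Flrt3 as a processed transcript without a coding sequence. When every annotated transcript was used, 7 genes had a shared region within 1 kb of a start, with Tenm3, Tenm4, Adgrl2 and Flrt2 added, and Tenm4 had 3 such regions. The count was 9 genes within 5 kb of the longest transcript's start. The share of all protein-coding genes was not computed at either setting and would also differ from 20.8%, so these counts have no comparison value.

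The 9 shared regions within 1 kb of any annotated start of a member had a median width of 2361 bp, a median ab1 score of 852.3 and a median of 62.5% G and C in the centre (range 50 to 84%). The other 146 had medians of 865 bp, 291.4 and 49.5%, with a range of 28 to 78% G and C. An extended E-box was in the centre of 3 of the 9 (33.3%, 12.1 to 64.6%) and of 87 of the 146 (59.6%, 51.5 to 67.2%), and these intervals overlap. The centre is also a smaller part of the wider regions.

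Of the 155 shared regions, 90 held an extended E-box in their central 200 bp, 58.1% (50.2 to 65.6%), against 59.7% of all shared regions. In the 200 bp windows placed 1000 bp beyond the ends of each region it was found for 33 regions on the left (21.3%) and 25 on the right (16.1%). Its share in the centre therefore exceeded both flanks and its interval includes the share over all shared regions. It was present in 74 of 118 regions at the teneurins (62.7%, 53.7 to 70.9%), in 10 of 21 at the latrophilins (47.6%, 28.3 to 67.6%) and in 6 of 16 at the FLRT genes (37.5%, 18.5 to 61.4%). The intervals of the 3 families overlap. The FLRT regions were wider than those of the other families, so the central 200 bp covered a smaller part of them. At the FLRT genes the flanks held it in 6 and 3 regions, so that the centre was not distinguishable from the flanks at this number of regions.

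**Figure D5:**
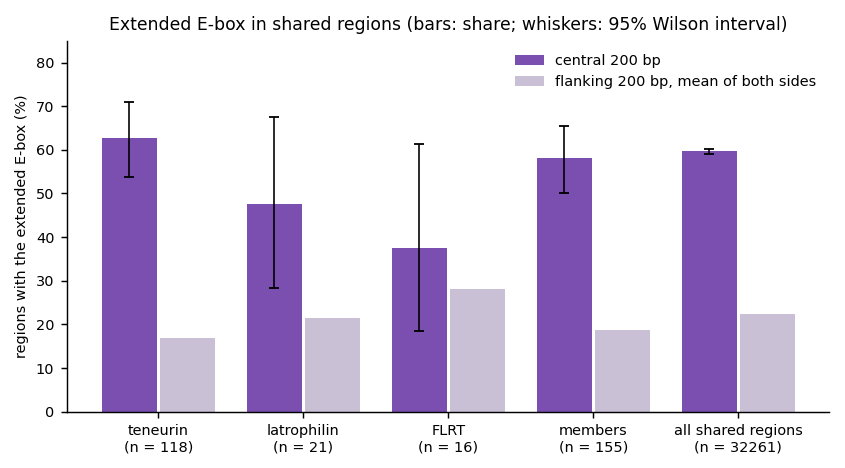
Percent of shared regions with an extended E-box (vertical axis) in the central 200 bp and in the flanking 200 bp windows, for the 3 families, the 10 loci together (members) and all shared regions, with 95% Wilson intervals as whiskers on the central share. The centre stands above the mean of both flanks in every set, by the least at the FLRT genes, where the centre and the left flank each held the motif in 6 of 16 regions.

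Of the 132 extended E-boxes in the centres of the member regions, 65 had the core CAGATG (49.2%), 47 had CAGCTG (35.6%) and 20 had CATATG (15.2%). Over all shared regions these shares were 55, 31.7 and 13.4% of 28815 sites. Regions with all 3 antibodies held an extended E-box in 25 of 39 cases (64.1%, 48.4 to 77.3%) and regions with ab1 and ab2 alone in 65 of 116 (56.0%, 47.0 to 64.7%). Over all shared regions the shares were 63.5% of 7160 with all 3 antibodies and 58.6% of 25101 with any 2, of which 25050 had ab1 and ab2, and both lie inside the intervals of the members. A match to these letters is not a measured contact of NEUROD2.

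Other genes linked to these families were taken as a list of 11. They were the Unc5 netrin receptors Unc5a to Unc5d, the receptors Fgfr1 and Robo1, the heparan sulfate proteoglycan Gpc3 and dystroglycan (Dag1). The neurexins Nrxn2 and Nrxn3, presynaptic partners of latrophilins, were included. So was Adgrl4, taken as a relative of the latrophilins and not as a binding partner. All 11 had a shared region in their window (67.6% of protein-coding genes), 5 had a region of all 3 antibodies (26.7%) and 4 had a shared region within 1 kb of the start site (20.8%). The 11 windows held 88 shared regions, and their density ran from 4.26 per Mb at Unc5c to 70.2 at Unc5a with a median of 18.6. Unc5a held 11 shared regions, 2 of them with all 3 antibodies, and exceeded 98.6% of protein-coding genes by density. Nrxn3 and Robo1 held 21 shared regions each, the same number as Tenm3, at 12.3 and 36.1 per Mb. Unc5d, an Unc5 receptor of migrating cortical neurons, held 13 shared regions, 4 of them with all 3 antibodies, at 19.3 per Mb.

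Every value above rests on 1 library per antibody and on called peaks, so counting intervals say nothing of variation between embryos. The number of shared regions depends on ab1 and ab2, since 155 remained without ab3 and 40 without ab1 or without ab2. Peak lists hold no expression values, so neither the tissue label nor the transcription of the 10 genes was checked in these data.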

How the data were processed

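Peaks of 3 NEUROD2 ChIP-Seq libraries were used. The authors mapped reads to mm10 with Bowtie, removed duplicates and multiply mapped reads, and called peaks per antibody with MACS, using the GFP precipitate of the matching host species as control. The deposited score is 10 × −log10 of the MACS p-value and was not scaled by the authors for depth. The study lists reads per library, but peak lists do not show how deeply a locus was covered. Processed GFP data were not used here.

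Overlapping peaks (at least 1 bp) were merged, and regions with at least 2 antibodies were called shared. GENCODE M21 transcripts of GRCm38 gave gene spans (longest transcript, 50 kb at either end). Shares carry 95% Wilson intervals, which cover counting error only. No test was run, since the data hold 1 condition. Members and lists were chosen with earlier results of these data known. Named were the 10 members, genes closest to a named region and the 11 listed partner or related genes. Named regions were those with the highest summed score at a locus, those within 1 kb of a start site and those with the 3 highest ab3 scores. Regions named besides these, chosen after their values were seen, are the further regions of all 3 antibodies at Tenm4 and Adgrl2, the strongest region inside Tenm2, the region just upstream of Tenm2, and the lower-scoring regions at Tenm1 and Adgrl1, as was the host gene Macrod2. A further partner gene and the sequence at Tenm3 are not reported here. Alternatives were score, overlap, window, transcript and motif settings and each antibody left out; closest start sites over every transcript were added after seeing the data. Python 3.11.15, numpy 2.4.6, scipy 1.17.1, pysam 0.24.0 and matplotlib 3.10.9 were used, and the steps were tested on simulated data.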

Additional observations from a re-analysis of the deposited data

How the results depend on the processing

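The number of shared regions at the 10 loci (155) ranged from 40 to 155 with 1 antibody left out, their percent of all regions from 16.9 to 65.1, their density from 7.58 to 29.4 per Mb, the members with a shared region within 1 kb of the start site from 1 to 3, the percent with an extended E-box from 58.1 to 67.5, and the median ab1 score from 313.8 to 1279. The low counts are those without ab1 and those without ab2, which leave the few ab3 peaks to share with. With a peak score of at least 100 there were 101 shared regions, 23 with all 3 antibodies, 19.1 per Mb and a median ab1 score of 530.4. With every annotated transcript 7 members had a shared region at a start site, and within 5 kb 9 did. Neither share was computed over all protein-coding genes. The E-box share was 87.7% for any CANNTG, 32.3% within 50 bp of the midpoint, 62.6% around the midpoint of the highest peak and 91.0% in the whole region. A required overlap of 50% of the smaller peak, 10 kb at either end, the gene span alone and protein-coding transcripts kept these totals within 1.5 times, although single loci moved: Flrt1 and Adgrl1 fell to 4 and 1 shared regions with 10 kb. Regions of all 3 antibodies have no value without an antibody, and the ab1 score has none without ab1. No paired analysis was possible because the GFP libraries have no peak files here and no contrast was made. The peak lists do not show the coverage of a locus, so a locus without ab3 peaks cannot be read as unbound.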
